A study of Macaca mulatta with 12 samples.

Results

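Estrogen given alone was compared with progesterone given alone in the dorsal raphe nucleus of ovariectomized female rhesus macaques. The comparison used 6 of the series' 12 arrays: the 3 titled as estrogen and the 3 whose source names carry the progesterone codes. Each array held RNA of a single monkey. All 12 animals had Silastic capsules under the skin near the shoulder blade for 1 month, and these held estrogen, progesterone, both steroids or, in the placebo group, neither. The animals' ages, the capsule doses and the steroids' blood levels were not stated in the labels. The titles of the progesterone arrays name progesterone alone but carry code letters that belong to the combined group, so the group was read from the source names. No placebo array entered the contrast, and the placebo and combined arrays, with 3 animals each, are set beside it below. Replicates were separate animals, so each error covers animal, tissue sample and array together.

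The dorsal raphe nucleus is the midbrain group of serotonin neurons that supplies much of the forebrain. Estrogen and progesterone act mainly through nuclear receptors, which bind DNA and recruit cofactors, and also through receptors at the cell membrane. In many tissues estrogen induces the nuclear progesterone receptor. The ovaries had been removed in all groups, which left the capsules as the main source of both steroids. A contrast of 1 steroid with the other differs from a comparison with placebo, since a gene that both steroids move alike shows no difference here.

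The array's probes were designed for human transcripts and were hybridized with macaque RNA, so how well a probe matches also sets its intensity, and no level was compared across probe sets. Differences are estrogen minus progesterone on a log2 scale, fitted with limma on quantile-normalized values after an offset of 8.26 was added, and intensities are as deposited. Of 12558 probe sets other than array controls, 7535 were bright enough to be tested, and they covered 5499 genes. The defining serotonin markers were measured in part. The serotonin transporter SLC6A4 read 220 to 495 over the 12 arrays and the serotonin neuron factor FEV 104 to 289. The probe set of the synthetic enzyme TPH1 reached at most 3.60 and was below the filter, and no probe set carried the name of TPH2, the form used in the brain.

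Estrogen array 1 stood apart from the other 5 arrays of the comparison. Its 28S ribosomal RNA control read 841, against 64.2 and 68.4 on the other estrogen arrays and 85.6 to 179 on the progesterone arrays. For GAPDH, the signal at the 3' end over that at the 5' end, a measure of RNA length, was 1.39 to 2.45 on the estrogen arrays and 0.892 to 1.22 on the progesterone arrays. These ranges did not overlap, and the exact permutation p was 0.1, the smallest that 3 against 3 arrays allow. The same ratio for actin overlapped, with 1.12 to 1.69 against 1.03 to 1.75. Principal component 2 of all 12 arrays, with 15.0% of the variance, placed the progesterone arrays at -18.2 to -9.16 and the estrogen arrays at -5.41 to 4.19. Array 1 of the combined group stood apart in the same way, with 1354 for 28S and 2.05 for the GAPDH ratio. On principal component 1 it scored 28.6 and estrogen array 1 scored 39.1, while the other arrays of these 2 groups lay between -13.6 and -3.56. The part of RNA quality in the results that follow was not tested. LPCAT4, DDX17, the counts by p-value and some of the other genes and lists are also given without estrogen array 1.

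**Figure D1:**
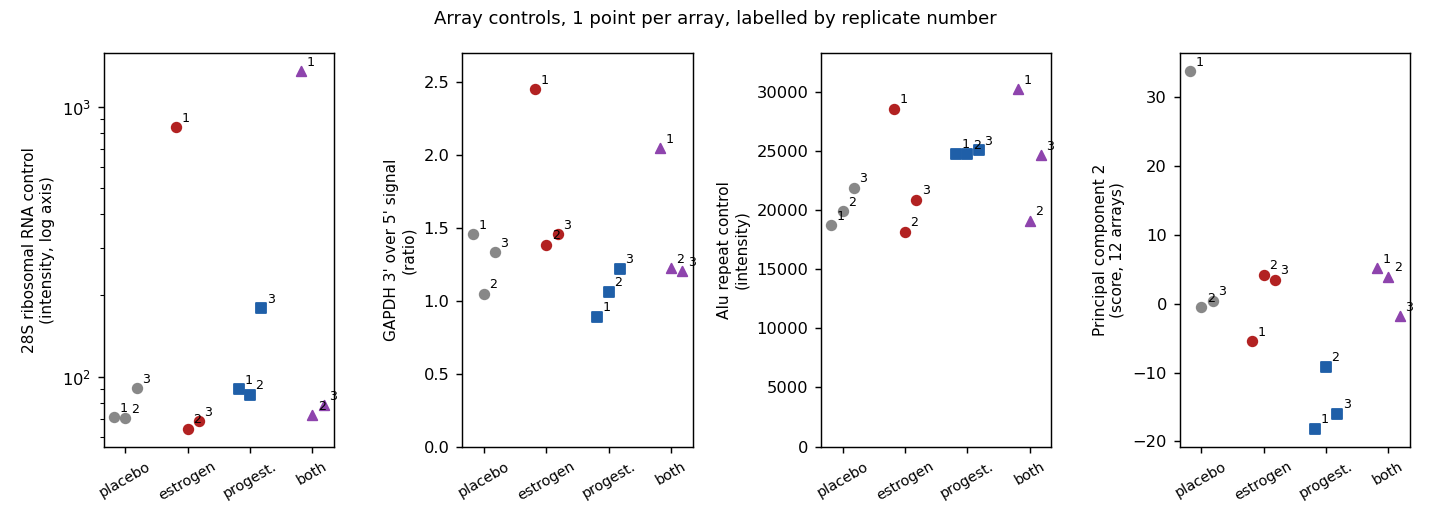
Array controls by group, with 1 point per array and its replicate number beside it: 28S ribosomal RNA intensity on a log axis, the GAPDH 3' to 5' ratio, the Alu repeat intensity and the score on principal component 2. Estrogen array 1 lies at 841 for 28S, and the progesterone arrays lie at 0.892 to 1.22 for the GAPDH ratio, below the estrogen arrays.

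Transcripts of LPCAT4 and DDX17 were higher with estrogen than with progesterone, and these were the 2 of 7535 probe sets (0.0265%) past limma's adjusted threshold of 0.05. LPCAT4 encodes an acyltransferase that rebuilds membrane phospholipids from their lyso forms. Its intensity was 91.4, 131 and 121 on the estrogen arrays and 15.9, 21.7 and 19.7 on the progesterone arrays. All 3 progesterone animals were far below all 3 estrogen animals. The placebo arrays read 157, 103 and 104 and the combined arrays 84.1, 154 and 164, so the progesterone arrays were the lowest 3 of the 12. The log2 difference was 2.15 ± 0.28 (SE), a ratio of 4.44 on the offset scale, with a limma adjusted p of 0.0497. Without estrogen array 1 it was 2.37 (limma adjusted p = 0.0354). The call was lost when any of the other 5 arrays was left out, with values of 2.03 to 2.21 and limma adjusted p-values of 0.0935 and 0.148 without estrogen arrays 2 and 3 and of 0.0695, 0.0937 and 0.337 without progesterone arrays 1, 2 and 3.

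DDX17 encodes a DEAD-box RNA helicase that takes part in splicing and acts as a coactivator of estrogen receptor alpha. Its intensity was 2136, 2318 and 2383 with estrogen and 1223, 1098 and 1042 with progesterone. The groups did not overlap, and the 3 progesterone arrays were again below the placebo arrays (2171, 1957 and 2116) and the combined arrays (2232, 1824 and 2254). The log2 difference was 1.06 ± 0.15 (SE), with a limma adjusted p of 0.0497. The call was lost when any single array was left out, estrogen array 1 included (1.07, limma adjusted p = 0.0777), with limma adjusted p-values of 0.0545 to 0.355 over the 6. A further probe set of DDX17, at a mean intensity of 583, gave -0.11 ± 0.17, so the probe sets of this gene disagree.

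No probe set was higher with progesterone past the threshold in limma's fit. An unadjusted p under 0.05 was reached by 637 probe sets (8.45%), of which 322 (4.27%) were higher with estrogen and 315 (4.18%) with progesterone; with no effect 376.75 would be counted. An unadjusted p under 0.01 was reached by 156 (2.07%), 83 (1.1%) higher with estrogen and 73 (0.969%) with progesterone, against 75.35. The 3 estrogen arrays lay wholly above the 3 progesterone arrays for 478 probe sets (6.34%) and wholly below them for 573 (7.6%), 1051 in all (13.9%). With no effect, a share of 0.1 would be separated in either direction, the smallest exact p that 3 against 3 arrays allow. A difference of 2-fold or more was measured for 128 probe sets, of which 62 were higher with estrogen. Without estrogen array 1, 796 probe sets had an unadjusted p under 0.05, and 380 were in both counts. In that fit LPCAT4 and SMARCC1, a subunit of the SWI/SNF chromatin remodeller, passed the adjusted threshold. SMARCC1 gave 1.52 without that array (adjusted p = 0.0130) and 1.07 with it (adjusted p = 0.376), and its other probe set gave -0.22.

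**Figure D2:**
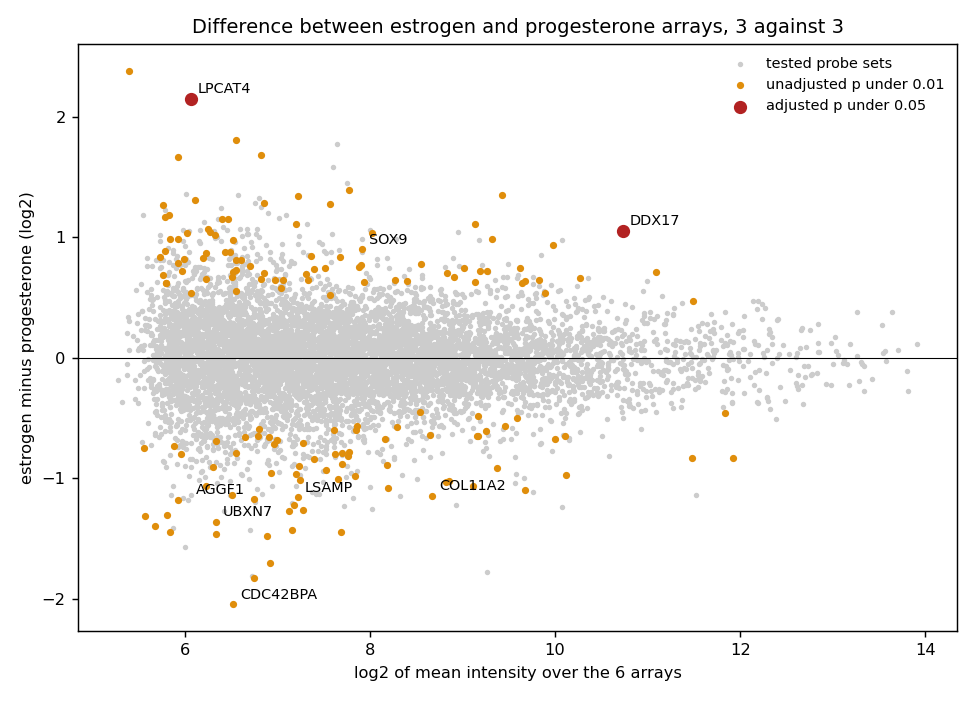
Difference between the estrogen and progesterone groups (log2, vertical axis) against the log2 of the mean intensity over the 6 arrays (horizontal axis), with 1 point per tested probe set. LPCAT4 at 2.15 and DDX17 at 1.06 are the large red points, and the orange points are the probe sets with an unadjusted p under 0.01, which lie on both sides of 0.

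Behind LPCAT4 and DDX17, the smallest p-values among genes higher with estrogen belonged to genes that did not pass the threshold. SOX9, a transcription factor of astrocytes and glial progenitors, read 354, 325 and 272 with estrogen and 193, 139 and 165 with progesterone, a log2 difference of 0.90 ± 0.16 (limma adjusted p = 0.109). The progesterone arrays were below every other array, since placebo arrays read 283 to 311 and combined arrays 278 to 296. RAPGEF2, which activates the small GTPase Rap1, read 1258, 1342 and 1359 against 905, 569 and 636. ADARB1, the RNA-editing enzyme ADAR2 that recodes glutamate receptor and serotonin 2C receptor transcripts, read 279, 298 and 323 against 194, 139 and 187. The log2 differences of RAPGEF2 and ADARB1 were 0.93 ± 0.18 and 0.75 ± 0.16, with limma adjusted p-values of 0.217 and 0.257. NAPG, the gamma-SNAP protein of membrane fusion, read 121, 104 and 106 against 46.3, 63.0 and 42.1.

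The remaining genes of this group were CCL27, a chemokine best known from skin, STARD8, NF2, the tumour suppressor merlin, PCDH7, a protocadherin, and TAOK2, a kinase upstream of p38. CCL27 read 179, 128 and 143 with estrogen and 38.8, 33.2 and 38.9 with progesterone, a log2 difference of 1.81 ± 0.39. The log2 differences of the other 4 lay between 0.98 and 1.15, and none of the 5 passed (limma adjusted p from 0.245 to 0.285). ADGRE5, the leukocyte adhesion receptor CD97, had another pattern. Its estrogen arrays read 69.9, 73.7 and 93.9 and its combined arrays 98.9, 93.0 and 86.6, while progesterone arrays read 29.2, 36.3 and 41.9 and placebo arrays 35.3, 23.6 and 28.5. The arrays that had estrogen, alone or combined, were all above those without it, and the log2 difference was 0.99 ± 0.20 (limma adjusted p = 0.217). Other probe sets of these genes gave 0.23 for RAPGEF2, -0.58 for NF2 and -0.52 for PCDH7, so those of NF2 and PCDH7 had the opposite sign.

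On the progesterone side the smallest p-value was that of AGGF1, an angiogenic factor. It read 155, 149 and 149 with progesterone and 59.3, 80.3 and 54.3 with estrogen, and every other array lay between 64.1 and 84.8. The difference was -1.17 ± 0.17 (limma adjusted p = 0.0537), just outside the threshold. UBXN7, which links ubiquitin ligases to the p97 segregase, read 105, 115 and 138 with progesterone and 50.1, 38.0 and 38.0 with estrogen (-1.36 ± 0.21, limma adjusted p = 0.0759). CDC42BPA, a kinase that binds the GTPase Cdc42, read 176, 159 and 114 against 40.6, 47.9 and 11.8 (-2.05 ± 0.34, limma adjusted p = 0.0935). LSAMP, an adhesion protein of limbic neurons, read 263, 151 and 215 against 94.7, 87.3 and 84.1 (-1.16 ± 0.20, limma adjusted p = 0.0970). For these 4 genes the progesterone arrays were above all 9 others. A brighter probe set of CDC42BPA gave 0.28 ± 0.19, and 2 dim probe sets of AGGF1 that were left out of the test gave 0.03 and -0.70.

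IRF9, the DNA-binding subunit of the interferon-activated complex ISGF3, read 176, 189 and 152 with progesterone and 51.0, 36.7 and 41.1 with estrogen. Its placebo arrays read 90.6, 39.2 and 45.8, and its combined arrays 50.2, 46.5 and 135, so single animals of those groups came near the progesterone level. The log2 difference was -1.83 ± 0.37 (limma adjusted p = 0.231). RPS16, a protein of the small ribosomal subunit, read 3093, 3787 and 4338 against 1567, 2037 and 2262. ITSN1, an endocytic scaffold, read 118, 115 and 127 against 23.1, 54.6 and 49.2, and PRRC2C, a large proline-rich coiled-coil protein, read 227, 261 and 241 against 142, 117 and 119. The differences were -0.83 ± 0.18, -1.46 ± 0.33 and -0.94 ± 0.21, none past the threshold, and other probe sets of ITSN1 and PRRC2C gave -0.37 and -0.20.

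For COL11A2 and CCT4 the estrogen arrays were the ones that stood apart. COL11A2, a chain of fibrillar collagen, read 207, 303 and 242 with estrogen and 461, 571 and 654 with progesterone, while placebo arrays read 366 to 478 and combined arrays 358 to 386. CCT4, a subunit of the chaperonin TRiC, read 158, 135 and 161 with estrogen, 278, 410 and 234 with progesterone and 213 to 288 on the other arrays. For both genes the estrogen arrays were the lowest of the 12, with differences of -1.15 ± 0.19 (limma adjusted p = 0.0935) and -0.98 ± 0.22 (limma adjusted p = 0.279). Other COL11A2 probe sets gave -1.43 and -0.23. TIMP1, an inhibitor of matrix metalloproteinases, read 41.8, 50.3 and 87.5 with estrogen and 53.1, 78.2 and 51.8 with both steroids, against 117, 182 and 231 with progesterone and 183, 109 and 103 with placebo (-1.48 ± 0.35). The arrays that had estrogen were below those that did not, the mirror image of ADGRE5. DUSP14, a phosphatase of MAP kinases, read 41.2, 62.1 and 35.0 with estrogen and 110, 69.9 and 130 with progesterone (-1.07 ± 0.25). Its placebo arrays read 74.2, 91.8 and 58.4, and the last of these lay within the estrogen range.

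**Figure D3:**
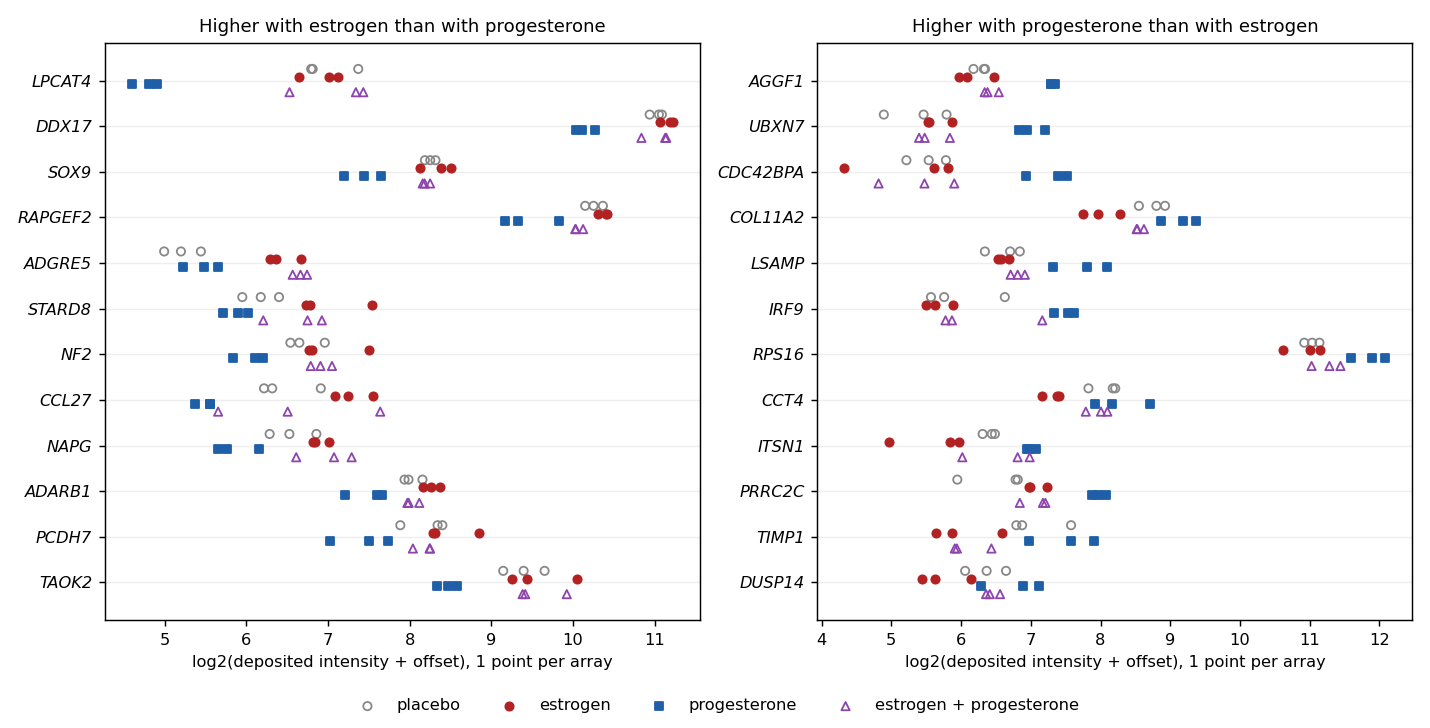
Levels of the 24 genes described above, 12 higher with estrogen (left) and 12 higher with progesterone (right), as log2 of the deposited intensity plus the offset, with 1 point per array. For LPCAT4, DDX17, AGGF1 and UBXN7 the blue squares (progesterone) lie apart from the points of all 3 other groups, whereas for ADGRE5 the red and purple points (estrogen with or without progesterone) lie apart from the rest.

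Among the probe sets of smallest p, the progesterone group was more often the one away from the placebo and combined animals. These probe sets were chosen by the contrast on the same arrays, so their shares and distances are a description only. Of the 156 probe sets with an unadjusted p under 0.01, the placebo mean was nearer to the estrogen mean in 119 (76.3%) and the combined mean in 121 (77.6%). Over all tested probe sets the shares were 57.9% and 58.8%. Both means were nearer to estrogen in 103 of the 156 and both nearer to progesterone in 19. In these 156, the median absolute log2 distance from placebo was 0.60 for progesterone and 0.24 for estrogen, against 0.19 and 0.15 over all tested. With the estrogen mean taken without array 1, the shares of the 156 were 76.9% and 78.2%, beside 54.1% and 49.7% over all tested. Array 1 of the combined group shared the high 28S signal, and with both means taken without their array 1 the combined mean was nearer to estrogen in 79.5% of the 156 and 53.9% of all tested. Both of these alternatives were added after the data were seen, and the 156 were not chosen again without estrogen array 1.

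The 3 progesterone arrays lay wholly on 1 side of the other 9 arrays for 278 tested probe sets (3.69%). The 3 estrogen arrays did so for 44 (0.584%), the placebo arrays for 34 (0.451%) and the combined arrays for 47 (0.624%). Among the 156 the progesterone and estrogen counts were 90 and 15, and among the 24 named genes 18 and 4. These later pairs are a description only, since the choice of those probe sets used the same arrays. The counts were not repeated without estrogen array 1. Within the progesterone group the Spearman correlations across probe sets were 0.926 to 0.941, within the estrogen group 0.865 to 0.945, and between the groups 0.879 to 0.927. The median SD over 3 arrays was 0.22 with progesterone and 0.29 with estrogen (log2). Without replicate 1 of each group it was 0.16 and 0.15, so the order of the 2 groups turned with replicate 1 left out. Principal component 2, given above, also placed the progesterone arrays below all others, with placebo array 1 far on the opposite side at 33.8. The GAPDH ratio set them apart from the estrogen arrays but not from all others. Placebo array 2 (1.05) and combined array 3 (1.20) lay within the progesterone range. The 3' to 5' ratio of the ISGF3A control was 1.26 to 1.99 with progesterone and 2.04 to 2.59 on the placebo and combined arrays. On the estrogen arrays it was 1.97 to 3.62, with array 1 the lowest. The Alu repeat control read 24726 to 25033 with progesterone, 18730 to 21889 with placebo and 18162 to 28552 with estrogen. On the combined arrays it read 19107 to 30222. The part of these measures in this pattern was not tested.

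**Figure D4:**
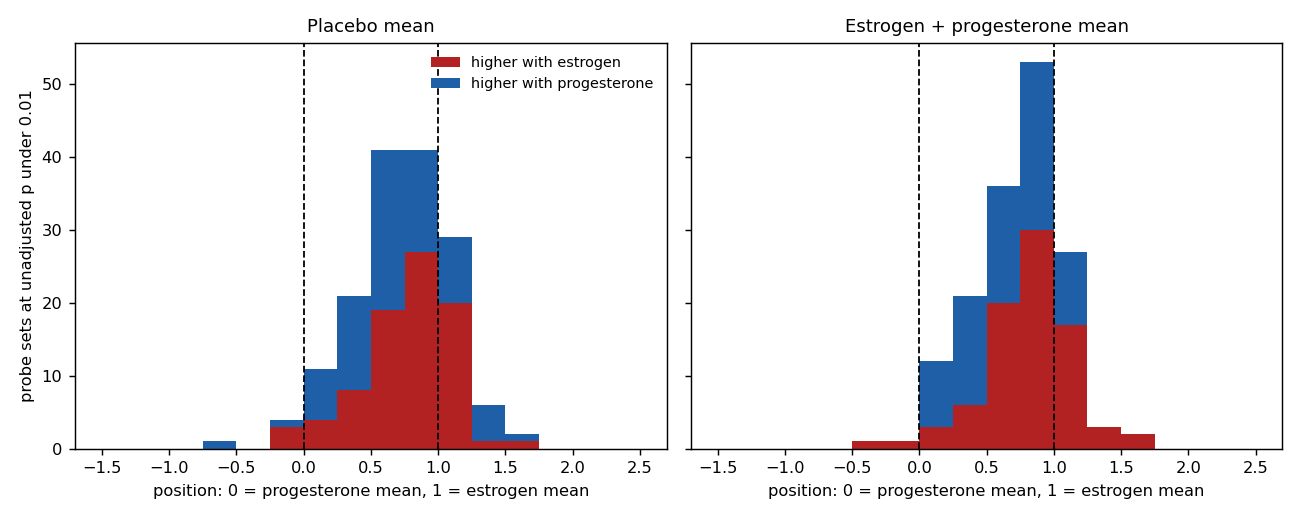
Where the placebo mean (left) and the combined mean (right) lie between the progesterone mean (0) and the estrogen mean (1), for the 156 probe sets with an unadjusted p under 0.01, coloured by direction. Most probe sets lie nearer to 1 than to 0 in both panels, 119 and 121 of the 156.

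Serotonin genes were somewhat more often higher with estrogen, but none passed the threshold. Of 21 measured genes of synthesis, transport, breakdown, receptors and cell identity, 14 were higher with estrogen and 7 with progesterone, and the median log2 difference was 0.12, against 0.01 over all genes tested. At an unadjusted p under 0.05 there were 3 genes, all higher with estrogen, where 8.02% of all genes had such a p, 4.31% higher with estrogen and 3.71% with progesterone. With the same probe sets but without estrogen array 1 the median was 0.32. Levels in bulk tissue cannot tell fewer cells of a type apart from less RNA per cell.

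Among genes that define serotonin neurons, SLC6A4 read 361, 388 and 377 with estrogen and 267, 307 and 272 with progesterone. The groups did not overlap, as in 6.58% of all genes in this direction, and placebo arrays averaged 435 ± 39.9 (SD, n = 3). The log2 difference was 0.38, with a 95% interval from -0.18 to 0.94. LMX1B, a factor needed for serotonin neuron development, read 257, 150 and 86.8 against 39.3, 147 and 36.5, a difference of 1.21 ± 0.49 (limma adjusted p = 0.560). This difference rested on the low progesterone arrays 1 and 3 and on estrogen array 1, the highest of all arrays. GATA3 gave 0.42, FEV 0.42, the vesicular transporter SLC18A2 0.39 and GCH1, which makes the cofactor of serotonin synthesis, 0.36. The decarboxylase DDC gave 0.05, with an interval from -0.49 to 0.59. Of 9 serotonin neuron markers, 8 were higher with estrogen, with a median of 0.38. This lean was not particular to them. All 5 measured markers of noradrenaline and dopamine neurons were also higher with estrogen, with a median of 0.29. Array scores were the median over genes of the log2 level minus each gene's mean. For the serotonin neuron markers they were 0.00 to 0.22 with estrogen and -0.24 to -0.16 with progesterone. Placebo scores were -0.01 to 0.23, so the placebo arrays lay with the estrogen arrays. The combined arrays scored 0.27, -0.11 and -0.02, so combined arrays 2 and 3 lay between the estrogen and progesterone arrays.

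Among receptors, HTR6, a serotonin receptor that raises cyclic AMP, read 557, 229 and 211 with estrogen and 160, 117 and 172 with progesterone (0.99 ± 0.36, limma adjusted p = 0.509). Much of the size came from estrogen array 1, and without it the difference was 0.55. HTR2C, the receptor whose transcripts are edited by ADARB1, read 281, 379 and 275 against 253, 204 and 230 (0.41 ± 0.18, limma adjusted p = 0.578). Of the other receptors, the 2 tested probe sets of HTR4 gave 0.12 and 0.40 and those of HTR1B -0.18 and 0.11. HTR1E gave 0.05, HTR2A -0.16, HTR7 -0.22 and HTR3A -0.44, and none of these receptors had an unadjusted p under 0.05. HTR1D and HTR2B were below the filter. MAOA, which breaks down serotonin, averaged 587 ± 200 (SD, n = 3) with estrogen and 449 ± 66.1 with progesterone, and its 2 tested probe sets gave 0.31 and 0.63. MAOB gave -0.03, PTS -0.06, QDPR -0.06 and SPR 0.26. The 3 tested probe sets of GATA2, another factor of serotonin neuron development, gave 0.11, 0.30 and 0.76. The last of them, which was not the one counted in the list, read 134 ± 6.51 (SD, n = 3) with estrogen and 75.2 ± 14.3 with progesterone, with a limma adjusted p of 0.370.

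Of 8 measured steroid receptors, 2 had an unadjusted p under 0.05, both higher with estrogen, where 4.31% of all genes did so. GPER1, a membrane estrogen receptor coupled to G proteins, read 125, 76.6 and 97.5 against 50.4, 39.0 and 62.8 (0.87 ± 0.22, limma adjusted p = 0.350). Its groups did not overlap, as in 6.58% of all genes in this direction. PGRMC2, a membrane protein of the progesterone receptor component family, read 334, 286 and 177 against 151, 169 and 183 (0.59 ± 0.22), with overlap. For the nuclear estrogen receptors no difference was detectable. ESR1 gave -0.21, with an interval from -1.09 to 0.66, and ESR2 gave -0.00, with an interval from -0.41 to 0.40. The probe set of PGR, the nuclear progesterone receptor, reached at most 10.5 and was below the filter. The glucocorticoid receptor NR3C1 gave 0.20, the mineralocorticoid receptor NR3C2 0.15, and the orphan receptors ESRRG and ESRRA 0.14 and -0.04.

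Of 17 receptor chaperones and cofactors, DDX17 passed, and 7 were higher with estrogen. NRIP1, a corepressor that estrogen induces in many cells, read 157, 193 and 137 against 114, 89.0 and 108 (0.57 ± 0.19). CREBBP, an acetyltransferase coactivator, read 105, 162 and 125 against 88.8, 60.8 and 93.2 (0.61 ± 0.22). Genes known from other tissues to respond to estrogen were split, 8 higher with estrogen and 9 with progesterone of 17, with a median of -0.04. In that list XBP1, a factor of the unfolded protein response, was lower with estrogen (905, 1152 and 1017 against 1288, 1491 and 1484, a difference of -0.46). Of 22 genes known to respond to progesterone, 13 were higher with progesterone, the median was -0.11, and none had an unadjusted p under 0.05. The 12 measured enzymes of neurosteroid synthesis had a median of -0.08, with 10 higher with progesterone.

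Other transmitter systems had no member past the threshold. Of 11 catecholamine genes, 9 were higher with estrogen (median 0.16), with the dopamine neuron factor PITX3 at 131, 120 and 120 against 81.7, 68.5 and 92.4 and the receptor DRD2 at 508, 368 and 413 against 315, 350 and 290. Of 14 GABA genes, 10 were higher with estrogen (median 0.27, and 0.44 without estrogen array 1). The GABA transporters SLC6A11 and SLC6A13 gave 0.77 ± 0.31 and 0.85 ± 0.34 and the receptor subunit GABBR2 0.61 ± 0.25. GABRB2, a subunit of the GABA-A receptor, went the other way, with 182, 108 and 78.5 with estrogen against 233, 200 and 210 (-0.84 ± 0.24, limma adjusted p = 0.418). Glutamate genes had a median of 0.01 over 19 and neuropeptide genes -0.04 over 22. The neuropeptide precursor CARTPT read 474 on progesterone array 2 and 44.0 and 43.7 on the others, so its -1.82 ± 0.85 rested in part on that array.

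Of 26 potassium channel genes, 17 were higher with estrogen, and 4 had an unadjusted p under 0.05, all in that direction, as 4.31% of all genes did. KCNJ6, the GIRK2 channel through which serotonin 1A autoreceptors slow raphe neurons, read 226, 312 and 259 against 174, 114 and 142 (0.84 ± 0.24, limma adjusted p = 0.411). HCN2, a pacemaker channel, read 294, 305 and 313 against 236, 221 and 176. KCNN3, a calcium-activated channel, gave 0.82 ± 0.32 and KCNC4 0.75 ± 0.30. The median of the list was 0.17, and it was 0.06 without estrogen array 1, so the list's median leaned on that array. Values of KCNJ6, HCN2 and KCNN3 without it were 0.97, 0.53 and 0.81.

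Interferon genes and matrix genes were more often higher with progesterone, and cytokine genes were split. Of 30 interferon and antigen presentation genes, 19 were higher with progesterone, with a median of -0.12 (-0.24 without estrogen array 1), and 6 had an unadjusted p under 0.05, 5 of them in that direction, where 3.71% of all genes lay. Besides IRF9, B2M, the light chain of class I antigen-presenting molecules, read 858, 1426 and 1096 with progesterone and 587, 392 and 533 with estrogen (-1.10 ± 0.29, limma adjusted p = 0.350). IFNAR1, a chain of the interferon receptor, gave -0.54, while IRF2, which counters IRF1, gave 0.67. Of 34 cytokine, chemokine and receptor genes, 16 were higher with estrogen and 18 with progesterone (median -0.04), with 2 and 4 at an unadjusted p under 0.05. Of 37 matrix and protease genes, 22 were higher with progesterone, and 8 of them without overlap, where 7% of all genes were separated in that direction. CHST3, which sulfates chondroitin, read 280, 400 and 379 with progesterone and 194, 210 and 256 with estrogen, and COL4A6, a basement membrane collagen, went the other way (0.54 ± 0.17).

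Microglial markers had the lowest median of the 51 lists, -0.35 over 11 genes, of which 9 were higher with progesterone. CD68, a lysosomal protein of phagocytes, read 274, 255 and 302 with progesterone and 184, 200 and 181 with estrogen (-0.57 ± 0.17, limma adjusted p = 0.451). FCGR3A, an antibody receptor, gave -0.64 and CSF1R, the growth factor receptor of microglia, -0.54. Array scores of the list were -0.14 to -0.08 with estrogen and 0.10 to 0.46 with progesterone, while placebo arrays spanned -0.05 to 0.23. The summed intensity of the list was 2065 to 2273 with estrogen and 2184 to 2908 with progesterone, which overlapped. CTSS, ITGAM and PTPRC of this list were below the filter. The interferon list median, B2M and IRF9 above differed between the groups in the same direction as these markers. Array scores of the interferon list overlapped, at -0.13 to 0.09 with estrogen and 0.05 to 0.22 with progesterone. Progesterone array 3 had the highest microglial score (0.46) and the lowest IRF9 intensity of its group (152). The part of microglial RNA in these values was not tested.

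Of 58 cell cycle and DNA replication genes, 40 were higher with progesterone, with a median of -0.10. The array scores were close within each group, 0.13 to 0.15 with progesterone and -0.03 to 0.01 with estrogen, and the other 6 arrays lay between -0.06 and 0.05. CCNC, the cyclin of the Mediator kinase, read 94.6, 86.7 and 86.9 with progesterone and 58.7, 60.8 and 35.7 with estrogen. E2F4, a repressor of cycle genes, gave -0.41 and RBL2, its pocket protein partner, -0.72, which was -0.35 without estrogen array 1. These were the 3 of 58 genes with an unadjusted p under 0.05 (5.17%), below the 8.02% of all genes, and none passed the threshold. Of 28 apoptosis genes, 20 were higher with progesterone, among them the initiator caspase CASP9 (217, 280 and 307 against 127, 169 and 141).

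LPCAT4 belonged to a list of 39 phospholipid and lipase genes with a median of 0.08. In it PLA2G15, a lysosomal phospholipase, read 86.3, 71.9 and 90.0 with estrogen and 30.2, 59.7 and 27.5 with progesterone (0.98 ± 0.28, limma adjusted p = 0.398), and LIPE, the hormone-sensitive lipase, read 570, 682 and 648 against 825, 975 and 908 (-0.50 ± 0.16). Among adhesion genes TNR, a matrix protein of perineuronal nets, read 71.4, 162 and 61.8 against 20.0, 27.2 and 21.7 (1.67 ± 0.51, limma adjusted p = 0.461). Among genes of amyloid and neurodegeneration APLP2, a relative of the amyloid precursor, read 731, 724 and 722 against 568, 381 and 379 (0.72 ± 0.18, limma adjusted p = 0.332). Neither TNR nor APLP2 overlapped between groups, as 6.58% of all genes did not in this direction, and both were picked from their lists by smallest p. Ribosomal protein genes (46, median 0.01) and genes of oxidative phosphorylation (54, median 0.00) lay at the level of all genes.

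Markers of other cells were set beside these results. Astrocyte markers, SOX9 among them, split 10 to 8 with a median of 0.05, which was -0.02 without estrogen array 1. The sign of this median turned in 4 of 18 alternatives. GLUL, the glutamine synthetase, gave 0.54 and NTRK2 0.50, while 1 of the 18 markers was separated with progesterone higher. Markers of oligodendrocytes had a median of -0.20 over 11 genes, and neuron markers 0.06 over 19. Cerebellar markers were higher with estrogen in 11 of 13 genes, with a median of 0.31 and summed intensities of 6871 to 7955 against 6688 to 7095. The cerebellar score was 0.17 and 0.32 on estrogen arrays 1 and 2 and -0.17 on estrogen array 3, below progesterone arrays 1 and 3 (-0.13 and -0.04). GABRA6, a defining marker of cerebellar granule cells, was below the filter, and PAX6 and PCP4 of this list are also made outside the cerebellum. How far the makeup of the tissue sample bears on the GABA and serotonin values was not tested. Over the 51 lists the medians ran from -0.35 to 0.38, and 48 lists had no member past the threshold.

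**Figure D5:**
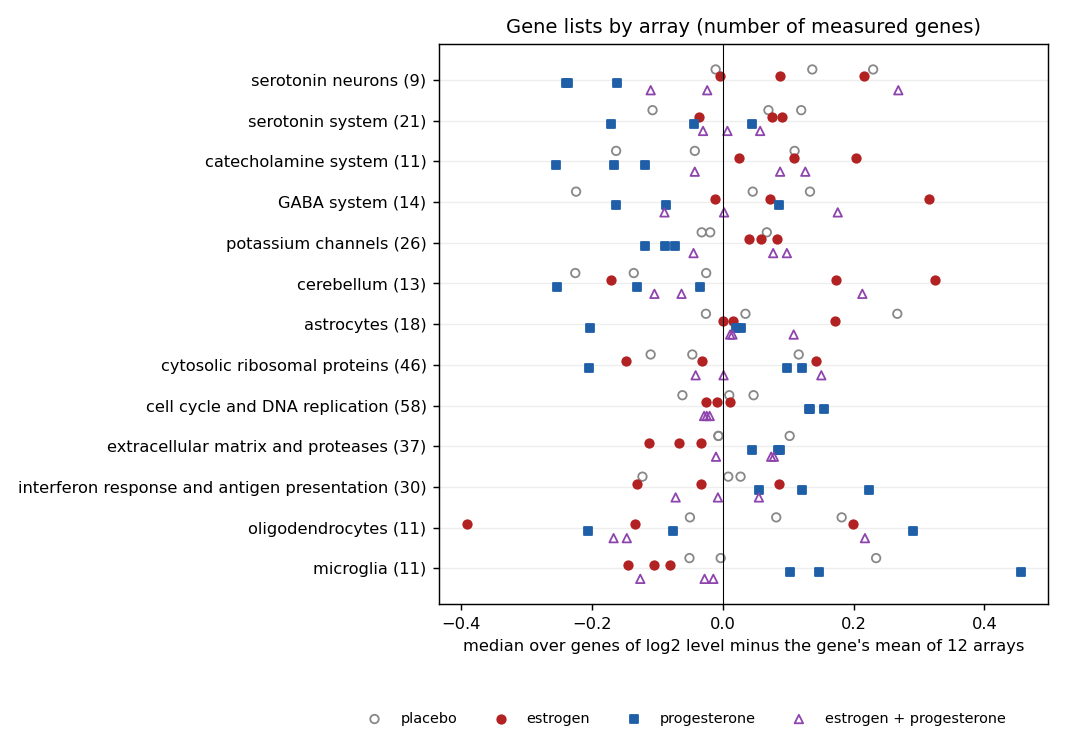
Scores of 13 gene lists on each array: the median over the list's genes of the log2 level minus the gene's mean of 12 arrays, with the number of measured genes in brackets. Serotonin neuron markers lie at -0.24 to -0.16 with progesterone and 0.00 to 0.22 with estrogen, and microglial markers at 0.10 to 0.46 and -0.14 to -0.08.

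Genes with more than 1 tested probe set gave a check within the array. For 934 such genes, the probe set of the smallest p was set against the median of the gene's other probe sets, and the sign was the same in 55.6%. Where that smallest p was under 0.05 the sign was the same in 114 of 178 genes (64.0%), and where it was under 0.01 in 26 of 43 (60.5%). DDX17, NF2 and PCDH7 were among the genes whose probe sets had opposite signs.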

How the data were processed

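The deposited values were intensities, 1 per probe set and array, on a linear scale. The authors had scaled every array to a common 2% trimmed mean of about 200.1, as read from the values. How the probes of a set were summarised is not given in the sources used here. Gene names came from the platform's probe table. Of 12625 probe sets, 67 were array controls, 10943 carried 1 gene symbol, 545 several and 1070 none; those with several symbols name no gene here. Array medians of intensity ran from 74.2 to 87.1, and 3 arrays per group limit the precision.

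Intensities were taken as log2(intensity + 8.26), with the 10th percentile of the pooled values as offset, and the arrays were quantile normalized without controls. Ratios on this scale understate changes of dim probe sets. The lowest 40% by mean over all arrays (5023 probe sets) were left out. The 4 group means were fitted over all 12 arrays with limma 3.58.1 (R 4.3.3, lmFit and eBayes), with 2-sided tests of the estrogen minus progesterone contrast and Benjamini-Hochberg adjustment over 7535 probe sets. Simulated data with known changes were used to test the code. Array measures were tested by exact permutation over the 6 arrays, with adjustment over 17 measures, none of which passed.

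The gene lists and members were chosen with earlier results of these data known. Up to 12 genes per direction were named. Separated probe sets past the threshold came first, then separated probe sets in order of unadjusted p, up to 0.01. All measured serotonin and steroid receptor genes and up to 4 members of other lists by smallest p were added. SMARCC1, HSPA2, STK39 and CDKN1B were named after their values were seen. In a list each gene was represented by its brightest probe set. Same-numbered animals of the 2 groups did not deviate together (correlations of 0.00, -0.05 and 0.05), so no pairing was used. Alternatives changed the normalization, filter, offset, variance model, arrays fitted and array weights, and left out each array in turn.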

Additional observations from a re-analysis of the deposited data

How the results depend on the processing

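The count past the adjusted threshold, 2, was sensitive to the processing. In limma's fit it was 1 on the values as deposited (LPCAT4), 0 after shifting the arrays to 1 median, 1 when the lowest 60% were removed (DDX17), 1 with an offset of 1 (LPCAT4), 5 with the offset at the 25th percentile and 13 with array weights. With only the 6 arrays compared it was 3, but DDX17 (adjusted p = 0.355) was not among them and LPCAT4 was below the filter. CCL27 (adjusted p = 0.0386) was higher with estrogen, and IRF9 (adjusted p = 0.0380) and a dim probe set of CDKN1B were higher with progesterone. With no filter it was 3, LPCAT4, the same gene CDKN1B and a probe set with no gene name. It was 0 to 3 when single arrays were left out. It was 0 without estrogen array 3 and without any of the 3 progesterone arrays, and without estrogen array 2 the 3 that passed were AGGF1, HSPA2 and STK39. The cause of these changes was not tested. LPCAT4 kept a positive difference (1.65 to 2.51) with adjusted p from 0.00168 to 0.337 over 15 alternatives, and DDX17 (0.99 to 1.13) from 0.00853 to 0.355 over 17. LPCAT4 was not tested in the other 2, where it was below the filter. All 24 named genes kept their sign in every alternative in which they were tested. Without estrogen array 1 the difference was smaller for genes such as ITSN1 (-1.04), TAOK2 (0.85) and NF2 (0.78). It was larger for others, such as CDC42BPA (-2.16) and ADGRE5 (1.13). The 637 probe sets at an unadjusted p under 0.05 became 1199 with array weights, and 450 to 796 when single arrays were left out. The 1051 without overlap became 1656 with no filter (12558 tested), 2462 without estrogen array 1 and combined array 1, and 1559 to 2462 when single arrays were left out, where fewer arrays overlap less often. With the replicate number as a block no probe set passed (0, and 653 at an unadjusted p under 0.05), and LPCAT4 and DDX17 had an adjusted p of 0.104. The numbers did not pair the animals, so this is given only as a setting. Of 21 list medians examined, 12 kept their sign throughout. Those of potassium channels ran from -0.02 to 0.25, of interferon genes from -0.24 to 0.00, of serotonin genes from 0.08 to 0.40, of serotonin neuron markers from 0.20 to 0.56 and of microglial markers from -0.58 to -0.20. Signal over background limits the size of differences of dim probe sets: that of LPCAT4 was 2.51 with an offset of 1 and 1.65 with the offset at the 25th percentile.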

Other observations

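Some genes that separated the groups belonged to lists not described above, and none of them passed limma's adjusted threshold. Of all genes, 6.58% were separated with estrogen higher and 7% with progesterone higher. HOXB3, a patterning factor of the hindbrain, read 109, 89.4 and 71.5 with estrogen and 35.2, 53.7 and 31.9 with progesterone (1.04 ± 0.24, limma adjusted p = 0.292). NKX2-2, a factor of oligodendrocyte precursors and of the ventral neural tube, read 408, 366 and 589 against 634, 784 and 673 (-0.65 ± 0.20). ELAVL3, a neuronal RNA-binding protein, read 529, 941 and 788 against 1322, 1492 and 1578 (-0.98 ± 0.25, limma adjusted p = 0.350), while the median of the 19 neuron markers was 0.06. In the same direction were NKTR, a cyclophilin of spliceosomes, at -0.90 ± 0.24, and RGS4, which ends G-protein signals, at -1.08 ± 0.39.

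Enzymes of energy and detoxification gave single members apart from their lists. IDH3A, a subunit of the citric acid cycle's isocitrate dehydrogenase, read 94.2, 70.3 and 75.1 with estrogen and 51.0, 45.8 and 38.9 with progesterone (0.72 ± 0.19, limma adjusted p = 0.365). MGST3, a microsomal glutathione transferase, read 1255, 1193 and 2117 against 991, 998 and 838 (0.66 ± 0.21). Among growth factor genes CNTFR, the receptor of ciliary neurotrophic factor, gave -0.91 ± 0.29 and IGFBP2, a binding protein of insulin-like growth factors, -0.82 ± 0.30, which without estrogen array 1 were -0.55 and -0.43. The cytokine IL10 read 62.7, 53.7 and 64.0 with estrogen and 83.8, 97.3 and 123 with progesterone (-0.69 ± 0.19, limma adjusted p = 0.398).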
